A study of Caenorhabditis elegans with 6 samples.

Results

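The nuclear hormone receptor genes of Caenorhabditis elegans were compared between whole worms of the wild-type strain N2 and worms carrying tdp-1(ok803). They were taken by name, as every gene called nhr followed by a number together with daf-12, unc-55, odr-7, fax-1 and sex-1. This gave 259 receptor genes among 17118 genes with a probe set of their own on the array, or 302 receptor probe sets. Each gene was read from its brightest probe set, by the mean of the 6 arrays. The gene table names 288 such receptor genes, 274 of them protein coding and 14 pseudogenes, and the 29 without a probe set of their own, nhr-62 among them, were not analysed here.

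Gene expression was measured on 6 Affymetrix C. elegans Genome Arrays, 3 from wild-type N2 and 3 from 1 outcrossed line, named RB929 in the sample descriptions, with the loss-of-function allele ok803 of tdp-1. How often it was outcrossed is not given in the sources used here. All worms were grown under standard conditions and harvested as mixed stages, so each array holds RNA of embryos, larvae and adults in an unmeasured mixture. In such whole animals, fewer cells of a type and less RNA per cell cannot be told apart. The comparison asks whether receptor transcripts differ when tdp-1, the worm orthologue of the gene for the RNA-binding protein TDP-43, is lost. With 1 mutant line set against N2, loss of tdp-1 cannot be told apart from other differences between these strains.

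Nuclear hormone receptors are transcription factors that carry a zinc-finger domain for binding DNA and, in most members, a second domain that can hold a small lipophilic ligand such as a steroid or a fatty acid. Binding of the ligand changes which coregulators the receptor recruits and so whether its target genes are switched on or off. Nematodes carry far more of these genes than insects or mammals, and most of the extra ones descend from an ancestor related to the vertebrate receptor HNF4. In the worm, receptors are known for timing moults and the choice of dauer arrest, for setting fat and vitamin-linked metabolism in the intestine, for detoxification and for the fates of single neurons.

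The tdp-1 transcript gave log2 values of 8.86, 9.22 and 8.85 on the wild-type arrays and 4.77, 4.78 and 5.47 on the tdp-1(ok803) arrays, a difference of -3.97 ± 0.21 (mutant minus wild type ± SE, limma adjusted p = 0.000815). Array medians lay between 5.41 and 5.52. The 3' minus 5' difference of the actin and Gapdh control probe sets, which grows with RNA breakdown and with labelling that stops short, was 2.69, 4.12 and 2.52 on the wild-type arrays and 4.01, 3.09 and 4.31 on the mutant arrays (exact permutation p = 0.3, two-sided, where 0.1 is the smallest that 3 arrays against 3 allow). The genotypes overlapped in it, with wild-type replicate 2 and mutant replicates 1 and 3 on the high side. With it as a covariate the difference turned sign for 56 of the 259 receptors, 6 of them among the 34 with a listed role, which are named with that value. Of the marker genes for stages and tissues, the mean level of 5 yolk genes overlapped between genotypes (13.71 to 13.90 in wild type and 13.60 to 13.98 in the mutant), as did those of 6 sperm and 5 embryo genes. The mean of 6 neuron genes, all of them lower in the mutant, was 6.63 to 7.05 in wild type and 6.31 to 6.61 in the mutant, without overlap. That of 5 epidermal genes, 4 of them lower and col-19 higher, was 8.24 to 9.28 and 7.97 to 8.41, with overlap. For 5 genes of body wall muscle, 3 of them lower, the means were 8.51 to 9.47 and 8.68 to 8.74, and for 5 oocyte genes, 4 of them lower, they were 10.07 to 10.26 and 9.66 to 10.35, so both overlapped. Median differences were -0.49 over the neuron, -0.59 over the epidermal, -0.49 over the muscle and -0.29 over the oocyte genes. Their part in the receptor values was not tested.

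Across the family, differences between the genotypes were small beside the spread between arrays. None of the 259 passed at an adjusted p under 0.05 in limma, either higher (0 genes, against 0.0351 percent of all genes) or lower (0 genes, against 0.0292 percent). At an unadjusted p under 0.05 there were 14, or 5.41 percent, where 7.24 percent of all genes lay there. Of these, 9 were higher in the mutant, 3.47 percent of the receptors against 4.05 percent of all genes, and 5 were lower, 1.93 percent against 3.2 percent. The median difference was 0.026 on the log2 scale, beside 0.013 for all genes, and the middle of the distribution ran from -0.069 to 0.11 between its quartiles, beside -0.11 to 0.12. A difference above 0 was found for 146 receptors, 56.4 percent, beside 53 percent of all genes. The share of receptors above 0 was 42.47 percent once the 3' minus 5' covariate was included, 47.88 percent without wild-type replicate 3 and 67.95 percent without wild-type replicate 2, the lowest and highest of the shares with an array left out. In the same order, the median difference over all probe sets was -0.027, -0.020 and 0.038, beside 0.0021 with all arrays. The whole table thus moved the same way. The share of all genes above 0 is not given for these fits. The mutant and wild-type values did not overlap for 34 receptors, 13.1 percent, beside 12.1 percent of all genes. These were 25 with the mutant higher (9.65 percent, beside 7.41 percent) and 9 with the mutant lower (3.47 percent, beside 4.7 percent). Groups of 3 can fail to overlap at a small difference, as for nhr-127, named after its values were seen, at 0.05.

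The 3 arrays per genotype set how small a difference could be seen. The 95% interval of a receptor's difference reached 0.32 to either side at the median. It lay wholly within a 2-fold difference in either direction for 257 of the 259 receptors, all but nhr-8 and nhr-17, and within a 1.5-fold difference for 214. The measured difference was under 0.2 in size for 207 receptors and over 0.4 for 10. Most receptor probe sets were dim: 189 of the 259 had a mean below the average array median of 5.48, and whether these lay above background was not assessed. A dim probe set can understate a difference, so intervals on such receptors bound the signal and not the transcript. The dim receptors had a median difference of 0.032 and the brighter 70 of 0.0012, beside 0.023 and -0.0059 for all genes split in the same way. At an unadjusted p under 0.05 lay 3.7 percent of dim receptors, beside 3.2 percent of dim genes. For the brighter ones the shares were 10 and 11 percent. Mutant values lay above all wild-type values for 21 of 189 dim receptors and below for 6. Over all dim genes these counts were 477 and 256 of 8302. Among brighter receptors they were 4 and 3 of 70, beside 792 and 548 of 8816 genes.

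**Figure D1:**
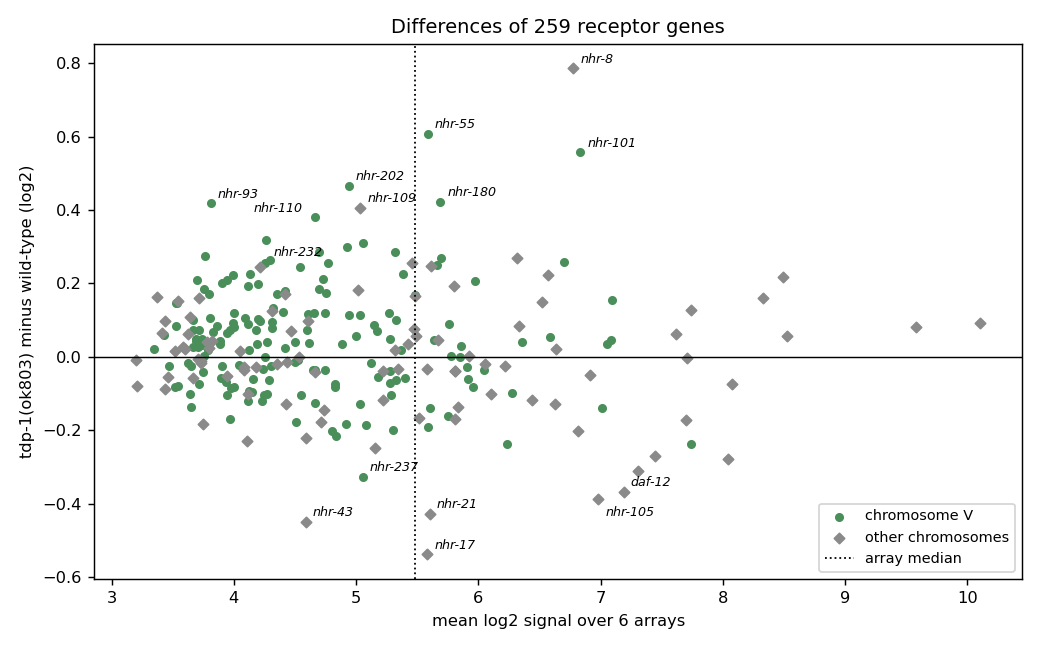
Each point is 1 of 259 receptor genes, with its mean log2 signal over 6 arrays on the horizontal axis and its difference, tdp-1(ok803) minus wild type on the log2 scale, on the vertical axis; genes on chromosome V are circles, others diamonds, and the dotted line is the average array median. Most points lie between -0.2 and 0.2, and the named ones are the 14 genes at an unadjusted p under 0.05 and nhr-17, the lowest.

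The largest receptor difference was that of nhr-8 (F33D4.1, chromosome IV), a close relative of daf-12 that is known for cholesterol balance and for resistance to toxins. Its log2 values were 6.60, 6.64 and 5.90 on the wild-type arrays and 7.21, 7.09 and 7.20 on the tdp-1(ok803) arrays. All mutant values lay above all wild-type values, and wild-type replicate 3 was low beside the other two. The difference was 0.79 ± 0.20 (log2, ± SE), with a 95% interval of 0.32 to 1.25, and did not pass over all probe sets (limma adjusted p = 0.407). Without wild-type replicate 3 it was 0.55, and the covariate made it 0.63.

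The receptor with the smallest p was nhr-55 (T01G6.7, chromosome V), for which no role is given here. It had log2 values of 5.37, 5.25 and 5.22 on the wild-type arrays and 5.90, 5.97 and 5.80 on the tdp-1(ok803) arrays. The groups were tight and stood apart, with a difference of 0.61 ± 0.11 and a limma adjusted p of 0.218. Leaving out single arrays gave differences of 0.57 to 0.65, and it was 0.64 with the covariate. After nhr-55 and nhr-8 came nhr-101 (H12C20.6, chromosome V), with values of 6.53, 6.41 and 6.72 on the wild-type arrays and 7.14, 6.85 and 7.34 on the tdp-1(ok803) arrays and a difference of 0.56 ± 0.16 (limma adjusted p = 0.465). Its groups did not overlap either.

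Of the other receptors at an unadjusted p under 0.05 that were higher in the mutant, nhr-109 had values of 4.80, 4.75 and 4.95 on the wild-type arrays and 5.28, 5.09 and 5.34 on the tdp-1(ok803) arrays. For nhr-110 they were 4.45, 4.65 and 4.33 on the wild-type arrays and 4.81, 4.81 and 4.96 on the tdp-1(ok803) arrays. For nhr-202 they were 4.66, 4.61 and 4.85 on the wild-type arrays and 4.996, 4.98 and 5.54 on the tdp-1(ok803) arrays, with mutant replicate 3 above the other two, and the difference without that array was 0.28. In each of these 3 genes every mutant array read above every wild-type array.

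The values of nhr-93 were 3.63, 3.50 and 3.67 on the wild-type arrays and 4.02, 3.74 and 4.30 on the tdp-1(ok803) arrays. Those of nhr-232 were 4.09, 4.05 and 4.18 on the wild-type arrays and 4.31, 4.44 and 4.52 on the tdp-1(ok803) arrays, and the mutant again lay above wild type on all arrays. For nhr-180 they were 5.49, 5.31 and 5.63 on the wild-type arrays and 5.91, 5.58 and 6.20 on the tdp-1(ok803) arrays, with groups that overlapped. The differences of nhr-109, nhr-110, nhr-202, nhr-93, nhr-180 and nhr-232 were 0.41, 0.38, 0.47, 0.42, 0.42 and 0.32, and their limma adjusted p lay between 0.522 and 0.706. The next by p was nhr-172 at 0.30.

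Among receptors with lower values in the mutant, nhr-43 (C29E6.5, chromosome IV) read 5.04, 4.65 and 4.76 on the wild-type arrays and 4.46, 4.23 and 4.40 on the tdp-1(ok803) arrays. Its difference was -0.45 ± 0.14 (limma adjusted p = 0.539), and the groups did not overlap. The values of nhr-105 were 7.28, 7.09 and 7.15 on the wild-type arrays and 6.99, 6.62 and 6.75 on the tdp-1(ok803) arrays, a difference of -0.39 ± 0.13. Those of nhr-21 were 6.11, 5.64 and 5.69 on the wild-type arrays and 5.48, 5.26 and 5.43 on the tdp-1(ok803) arrays, a difference of -0.43 ± 0.16 that was -0.28 without wild-type replicate 1, the highest array. In all 3 genes every mutant array read below every wild-type array.

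The values of nhr-237 were 5.27, 5.02 and 5.35 on the wild-type arrays and 4.74, 4.94 and 4.98 on the tdp-1(ok803) arrays, also without overlap. The differences of nhr-237, nhr-97, nhr-53 and nhr-34 were -0.33, -0.20, -0.20 and -0.28, none of them passing. Of all 14 receptors at an unadjusted p under 0.05, 12 had groups that did not overlap, and daf-12 and nhr-180 were the other two.

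**Figure D2:**
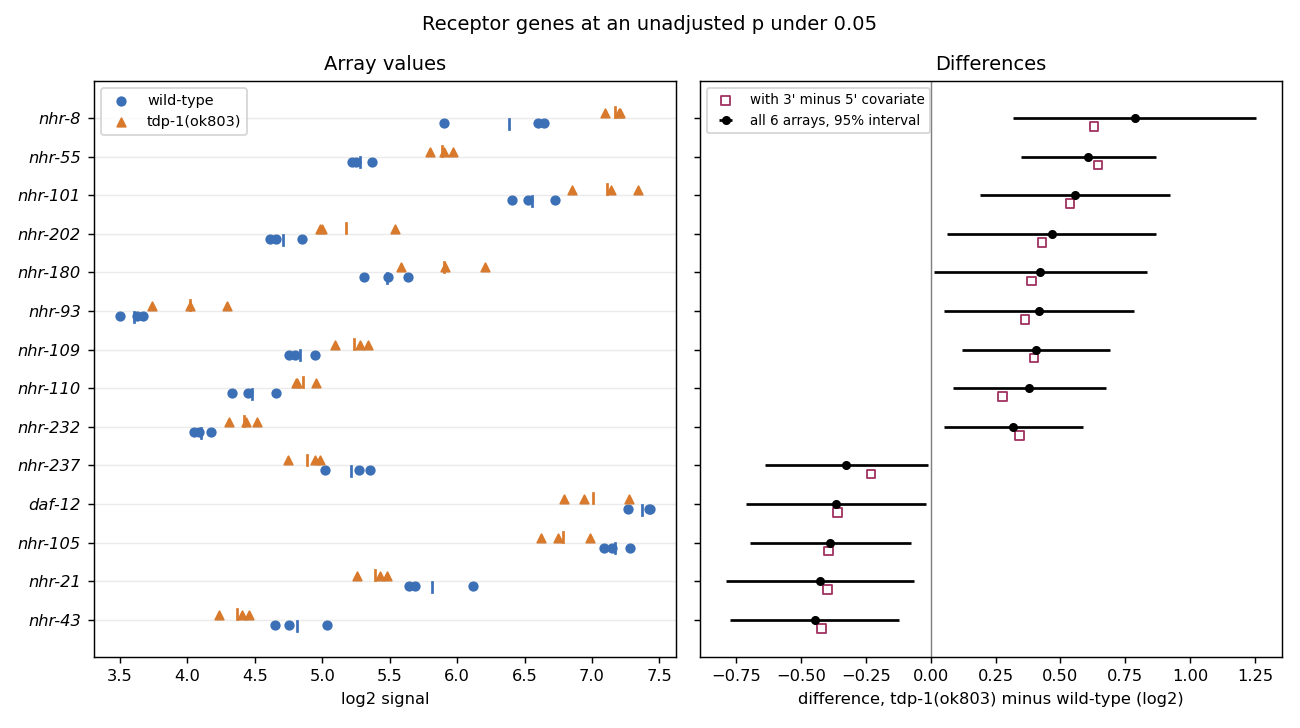
The left panel shows the log2 signal of the 14 receptor genes at an unadjusted p under 0.05 on each of 3 wild-type arrays (circles) and 3 tdp-1(ok803) arrays (triangles), with bars at the group means; the right panel shows the difference with its 95% interval (limma, all 6 arrays) and, as squares, the difference once the 3' minus 5' covariate is included. The intervals exclude 0 before adjustment, as the choice of genes requires, and the squares keep the sign of the circles.

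Receptors of development were mixed in direction, with 4 of 12 higher and 8 lower in the mutant and a median difference of -0.088. Of the 12, 1, daf-12, lay at an unadjusted p under 0.05. For this and the other role groups, the shares over all genes were 53 percent higher and 7.24 percent at an unadjusted p under 0.05. The gene daf-12 (F11A1.3, chromosome X) encodes the receptor for the steroid dafachronic acid, which decides between reproductive growth and dauer arrest. Its brightest probe set read 7.42, 7.26 and 7.43 on the wild-type arrays and 6.79, 6.94 and 7.28 on the tdp-1(ok803) arrays. Mutant replicate 3 lay above wild-type replicate 2, so the groups overlapped, and the difference was -0.37 ± 0.15 (limma adjusted p = 0.694). The other 2 probe sets of daf-12 differed by 0.029 and 0.051 at low signal, so the lower values rest on 1 of 3 probe sets.

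The receptors that drive moulting did not follow a common direction. The gene nhr-23 (C01H6.5, chromosome I), the orthologue of the ROR receptors and needed at each moult, read 8.16, 8.51 and 8.08 on the wild-type arrays and 8.23, 8.39 and 8.61 on the tdp-1(ok803) arrays. The groups overlapped, the difference was 0.16 ± 0.16 with a 95% interval of -0.21 to 0.53, and with the covariate it was 0.02. Its other probe set differed by 0.15. The gene nhr-25 (F11C1.6, chromosome X), the orthologue of Ftz-F1 and SF-1 with roles in the epidermis and in moulting, read 7.57, 7.47 and 7.34 on the wild-type arrays and 7.44, 7.17 and 6.83 on the tdp-1(ok803) arrays. Mutant replicates 2 and 3 lay below all wild-type arrays and mutant replicate 1 among them, and the difference was -0.31 ± 0.17 (95% interval -0.70 to 0.081, limma adjusted p = 0.802). Its other probe set differed by 0.025. The Rev-erb and E75 relative nhr-85, which takes part in developmental timing, differed by -0.13, and nhr-41, related to the insect receptor DHR78, by 0.045, which became -0.11 with the covariate.

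The gene nhr-91 (Y15E3A.1, chromosome X), related to the germ cell nuclear factor of vertebrates, had mutant values below all wild-type values. They were 5.30, 5.26 and 5.28 on the wild-type arrays and 5.15, 5.07 and 4.88 on the tdp-1(ok803) arrays, and the wild-type arrays were within 0.04 of each other. The difference was -0.25 ± 0.12 (limma adjusted p = 0.76). The early embryonic receptor nhr-2 read 6.47, 6.49 and 6.42 on the wild-type arrays and 6.88, 6.77 and 6.41 on the tdp-1(ok803) arrays, a difference of 0.22 ± 0.15 with overlapping groups. Its other probe sets differed by -0.038, -0.12 and 0.0072. The tailless relative nhr-67, known from vulval and neuronal development, differed by 0.17 and by 0.07 with the covariate. For nhr-6, the NR4A orthologue needed for the spermatheca, these values were -0.14 and -0.32. For nhr-31, known from growth of the excretory canal, they were -0.27 and -0.053, and leaving out single arrays gave -0.46 to -0.06. The gene nhr-40, known from muscle development, differed by -0.048, or -0.13 with the covariate, and nhr-48, a relative of daf-12 and nhr-8, by -0.038. The 15 receptors with orthologues outside nematodes had a median difference of -0.013, with 6 higher and 9 lower, beside 0.028 for the other 244.

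Receptors of lipid and nutrient metabolism gave 7 of 10 higher and 3 lower in the mutant, a median of 0.086 and 0 at an unadjusted p under 0.05. Of those counted as higher, nhr-49, nhr-66, nhr-76 and nhr-10 had another probe set of the opposite sign, given further below. The gene nhr-49 (K10C3.6, chromosome I), which controls fatty acid breakdown and desaturation in a role like that of vertebrate PPAR alpha, read 10.004, 10.26 and 9.91 on the wild-type arrays and 9.95, 10.06 and 10.45 on the tdp-1(ok803) arrays. The groups overlapped and the difference was 0.092 ± 0.17, with a 95% interval of -0.29 to 0.48. It was -0.051 with the covariate and -0.055 to 0.19 when single arrays were left out, so its sign was not fixed. Its known partners nhr-80, nhr-13 and nhr-66 differed by 0.27, 0.15 and 0.081, and by 0.057, 0.097 and -0.046 with the covariate. Of these nhr-80, which supports oleic acid synthesis, read 6.02, 6.50 and 6.03 on the wild-type arrays and 6.54, 6.23 and 6.59 on the tdp-1(ok803) arrays, with wild-type replicate 2 among the mutant arrays.

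The receptors of the propionate shunt, a pathway that breaks down propionate when vitamin B12 is short, are nhr-10 and nhr-68. The first differed by 0.13 and the second by -0.24, with 95% intervals of -0.18 to 0.44 and -0.96 to 0.48. The values of nhr-68 (H12C20.3, chromosome V) were 7.83, 7.39 and 8.35 on the wild-type arrays and 7.79, 8.04 and 7.03 on the tdp-1(ok803) arrays, a wide spread in both genotypes. The vitamin B12 linked receptor nhr-114, which protects the germline on some diets, differed by -0.16 with a 95% interval of -0.90 to 0.58. For nhr-68 and nhr-114 the sign turned with the covariate, to 0.15 and 0.26. The HNF4 relatives nhr-64, linked to fat storage, and nhr-69, linked to insulin secretion, differed by 0.099 and -0.23, or 0.18 and -0.1 with the covariate, and nhr-76, which acts in fat loss downstream of serotonin, by 0.056.

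Receptors of stress and xenobiotics were higher in the mutant for 5 of 6, with a median of 0.11. Apart from nhr-8, 0 of them lay at an unadjusted p under 0.05. Of the 5, nhr-45 had another probe set of the opposite sign, at -0.31, with the mutant below all wild-type arrays. The gene nhr-86 (Y40B10A.8, chromosome V), a sensor of bacterial metabolites in the intestine, read 7.01, 6.86 and 7.23 on the wild-type arrays and 7.21, 7.38 and 6.62 on the tdp-1(ok803) arrays, with mutant replicate 3 the lowest array and mutant replicate 2 the highest. Its difference was 0.036 ± 0.21, or 0.24 with the covariate. The hypoxia-induced nhr-57 differed by 0.072, nhr-45, known from the response to mitochondrial damage, by 0.15, and nhr-14, linked to intestinal iron and immunity, by -0.17. For nhr-176, known from thiabendazole metabolism, mutant values lay just above wild-type ones, at 3.94, 3.94 and 3.77 on the wild-type arrays and 3.96, 3.99 and 4.38 on the tdp-1(ok803) arrays, a difference of 0.22 ± 0.15, or 0.14 with the covariate. The zinc receptor hizr-1 is no longer named as an nhr gene in the gene table and is not counted here; it differed by -0.04.

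Receptors of neurons and of sex determination gave 2 of 6 higher and 4 lower, a median of -0.0076 and 0 at an unadjusted p under 0.05. The gene sex-1 (F44A6.2, chromosome X), an X-chromosome signal in sex determination, read 7.68, 7.999 and 7.44 on the wild-type arrays and 7.90, 7.66 and 7.56 on the tdp-1(ok803) arrays. Its difference of -0.0019 ± 0.17 was small beside the spread of both genotypes, its 95% interval was -0.40 to 0.39, and with the covariate it was -0.14. The other probe sets of sex-1 differed by 0.094 and -0.18. The COUP-TF orthologue unc-55, which sets the synaptic pattern of a class of motor neurons, differed by 0.028, or -0.058 with the covariate, odr-7, needed for the AWA olfactory neurons, by -0.041, and fax-1, related to the vertebrate photoreceptor receptor PNR, by -0.10. The conserved receptors nhr-111 and nhr-239 differed by 0.12 and -0.013, and by 0.033 and -0.26 with the covariate. Apart from sex-1 these 5 had means below the array medians.

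**Figure D3:**
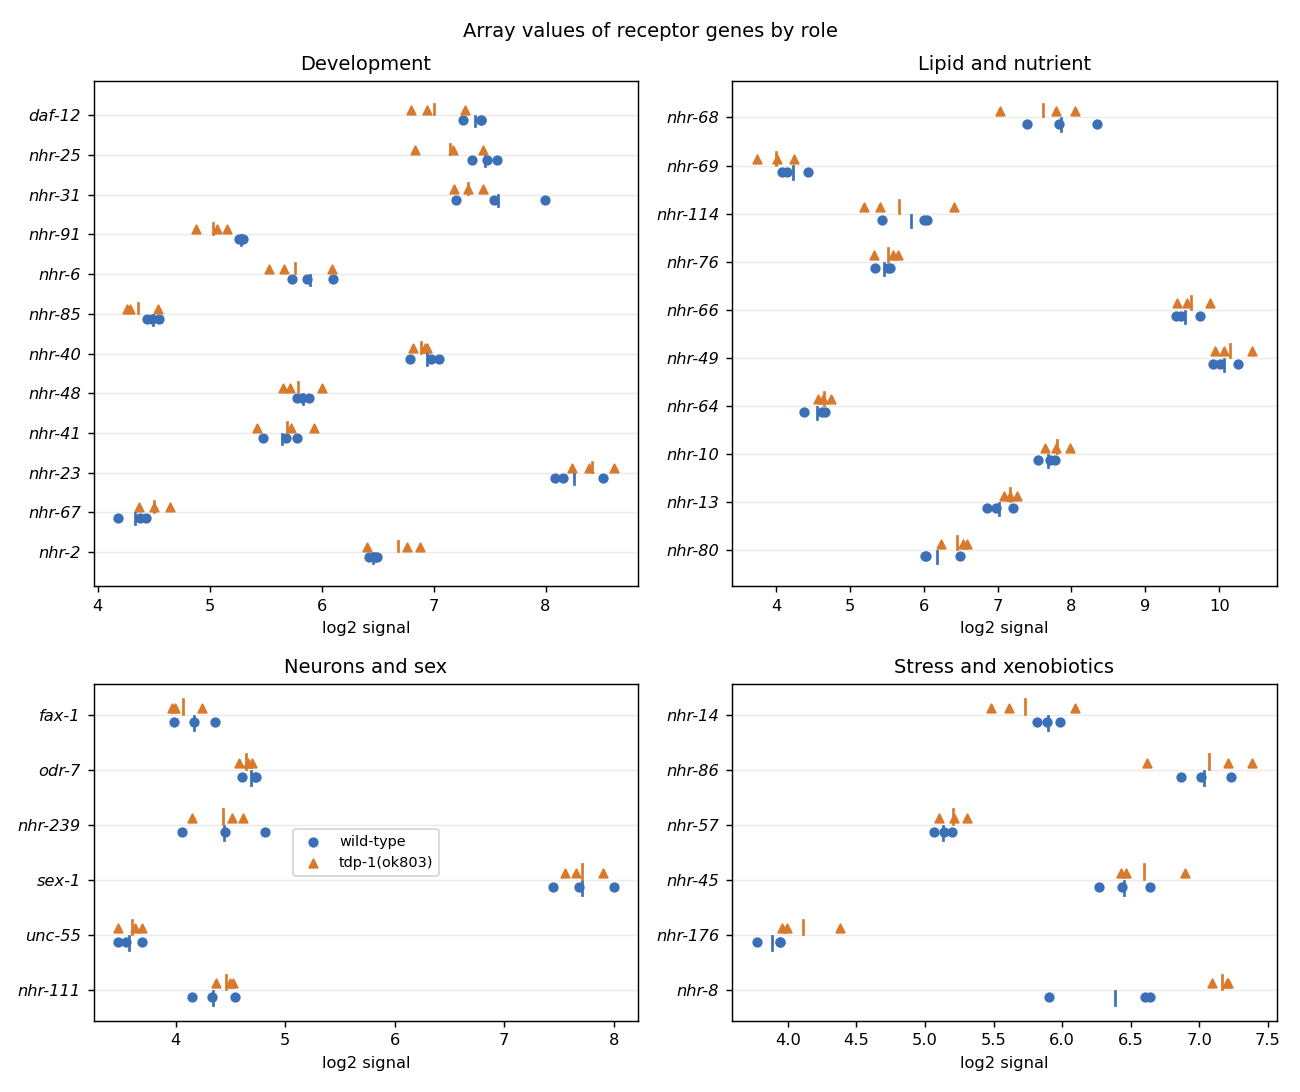
Log2 signal of the 34 measured receptor genes with a listed role, in 4 panels by role, on 3 wild-type arrays (circles) and 3 tdp-1(ok803) arrays (triangles), with bars at the group means; genes are ordered by their difference within a panel, from lower to higher in the mutant. The genotypes overlap for every gene shown except nhr-8, nhr-91 and nhr-176.

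The 225 receptors with no listed role had a median difference of 0.024, with 128 higher and 97 lower and 12 at an unadjusted p under 0.05, which is 5.33 percent of them beside 7.24 percent of all genes. Among the 10 receptors with the brightest probe sets were 4 of these. The values of nhr-34 were 8.24, 8.21 and 8.11 on the wild-type arrays and 7.71, 7.72 and 8.29 on the tdp-1(ok803) arrays, and those of nhr-88 were 8.43, 8.61 and 8.12 on the wild-type arrays and 8.69, 8.22 and 8.90 on the tdp-1(ok803) arrays. Both had overlapping groups, and nhr-88 was lowest on wild-type replicate 3 among wild-type arrays. Also bright were nhr-46 and nhr-71, with differences of 0.058 ± 0.14 and -0.074 ± 0.14. The other probe set of nhr-71 differed by 0.24, with the mutant above all wild-type arrays (limma adjusted p = 0.796).

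Different probe sets of a receptor gene often differed in sign. Of 35 receptors with 2 or more probe sets, all of them pointed one way for 12. None of the 43 further probe sets passed in limma at an adjusted p under 0.05, where 0.0577 percent of all probe sets did, and 4 lay at an unadjusted p under 0.05, 9.3 percent of them beside 6.97 percent of all probe sets. These 4 belong to nhr-65, nhr-34, nhr-88 and nhr-66, of which nhr-65 is named for this value. The second probe set of nhr-65, of the s_at kind, read 5.18, 5.09 and 5.39 on the wild-type arrays and 5.78, 5.49 and 6.26 on the tdp-1(ok803) arrays. Its difference of 0.62 was the largest of the 4 and its groups did not overlap (limma adjusted p = 0.549), while the brighter probe set of the gene differed by 0.045. For nhr-66, which works with nhr-49, the brighter probe set differed by 0.081 and the other by -0.31, with the mutant below all wild-type arrays in the second (limma adjusted p = 0.681). The same held in sign for nhr-49, at 0.092 and -0.32, for nhr-45, at 0.15 and -0.31, and for nhr-46, at 0.058 and -0.32. For nhr-10, nhr-41 and nhr-76 the other probe set also had the opposite sign, at -0.052, -0.048 and -0.17. Both probe sets of nhr-34 were lower in the mutant, at -0.28 and -0.37, and both of nhr-110 higher, at 0.38 and 0.24. The other probe sets of nhr-109, nhr-97, nhr-6 and nhr-40 kept the sign of the brighter ones, at 0.10, -0.12, -0.029 and -0.067. Of the 4 probe sets of nhr-88, 3 were higher (0.22, 0.37 and 0.24) and 1 lower (-0.15). Where probe sets lie along these transcripts was not analysed here. The stand-in probe set of 27 receptors is marked s_at or x_at, a design that can also catch related transcripts.

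Receptor genes cluster on chromosome V, which holds 164 of the 259. Their median difference was 0.041, with 101 higher and 63 lower and 8 at an unadjusted p under 0.05, beside 0.027 over all 4316 genes of that chromosome. The share higher was 61.6 percent beside 57.1 percent, and the share at an unadjusted p under 0.05 was 4.88 percent beside 6.21 percent. The 27 receptors on chromosome X had a median of -0.038, with 10 higher and 17 lower, beside 0.0017 over 2352 genes, of which 1183 were higher and 1169 lower. Of all measured receptors, 116 stood next to another receptor gene among protein-coding genes, and of 73 such neighbouring pairs with both measured, 40 shared the sign of their difference. In the longest run, 9 receptors from nhr-185 to nhr-124, differences ran from -0.17 to 0.17 and 0 lay at an unadjusted p under 0.05.

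The neighbours of some receptors with the smallest p are given beside them as a description, since those receptors were chosen for their size. The adjacent genes nhr-110 and nhr-237 differed in opposite directions, at 0.38 and -0.33. On either side of nhr-55, at 0.61, nhr-130 differed by -0.097 and nhr-99 by 0.29. Next to nhr-202, at 0.47, nhr-203 differed by 0.19 and nhr-201 by 0.026, and next to nhr-93, at 0.42, nhr-221 differed by 0.31. The other neighbour of nhr-237, nhr-238, differed by 0.050. Apart from nhr-110 and nhr-237, both among the receptors with the smallest p, these neighbours were named for their position and not for their values.

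The limma SE of the difference, which draws each gene's variance toward a common value, was close between receptors and other genes of like signal. At the median it was 0.13 over dim receptors and 0.14 over all dim genes, and 0.16 and 0.16 over the brighter ones. The within-genotype SD itself was not compared at like signal. Without this split, the median within-genotype SD was 0.155 over receptors, beside 0.183 over all genes, and 4 receptors (1.54 percent, beside 6.4 percent of all genes) had an SD over 0.4. The widest 3 were nhr-114, nhr-17 and nhr-68, which were singled out after their values were seen. The values of nhr-114 were 6.05, 5.43 and 6.005 on the wild-type arrays and 5.402, 6.41 and 5.19 on the tdp-1(ok803) arrays. They were highest on mutant replicate 2, followed by wild-type replicates 1 and 3, and these arrays had the smaller 3' minus 5' difference, and nhr-68 was lowest on wild-type replicate 2 and on mutant replicate 3. Their slopes on the 3' minus 5' difference at fixed genotype were -0.61 and -0.56 per log2 unit, beside a median of 0.082 over receptors and 0.067 over all genes.

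The third of these, nhr-17 (C02B4.2, chromosome X), read 5.85, 6.55 and 5.15 on the wild-type arrays and 5.43, 5.14 and 5.36 on the tdp-1(ok803) arrays. Wild-type replicate 2 was high, wild-type replicate 3 lay at the level of the mutant arrays, and the groups overlapped. Its difference of -0.54 ± 0.31 was the lowest of all receptors, with a 95% interval of -1.26 to 0.18 (limma adjusted p = 0.828). It was -0.19 without wild-type replicate 2, -0.89 without wild-type replicate 3 and -0.92 with the covariate (limma adjusted p = 0.212). Over all receptors the median difference was -0.035 with the covariate, beside -0.026 for all genes, and 0 receptors passed.

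**Figure D4:**
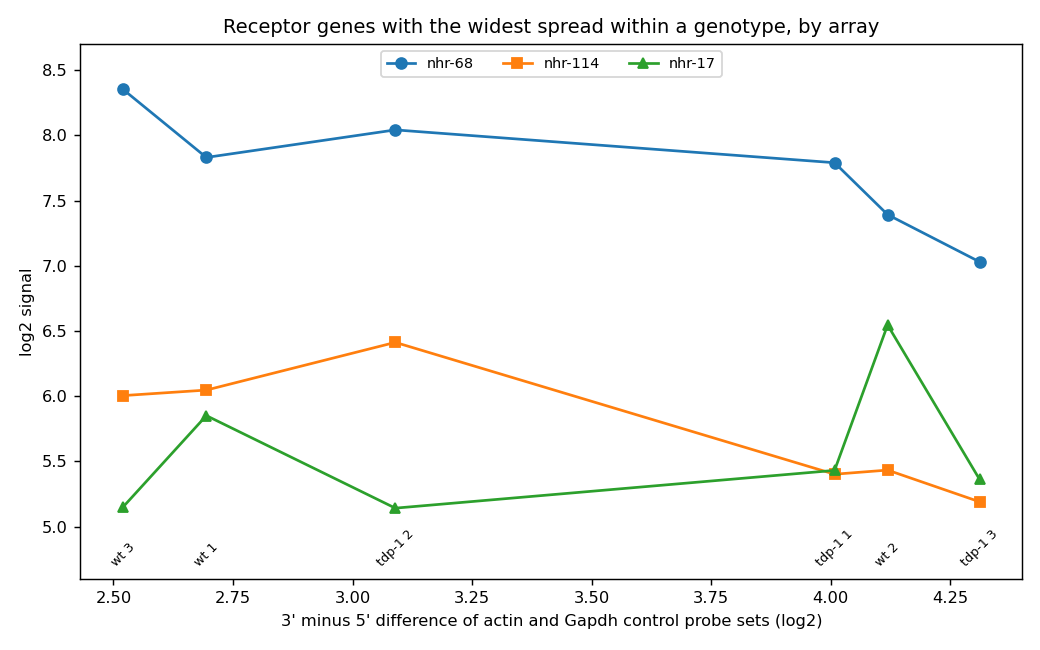
Log2 signal of nhr-68, nhr-114 and nhr-17, the receptor genes with the widest spread within a genotype, on the vertical axis against the 3' minus 5' difference of the actin and Gapdh control probe sets (log2) on the horizontal axis, 1 point per array with the array named at the foot (wt, wild type; tdp-1, tdp-1(ok803)). From left to right the arrays are wild-type replicates 3 and 1, mutant replicates 2 and 1, wild-type replicate 2 and mutant replicate 3, and nhr-114 is between 5.19 and 5.43 on the 3 arrays at the right and between 6.005 and 6.41 on the 3 at the left.

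Genes that work with the receptors were set beside them. Of 12 coregulator genes 11 were measured, of which 8 were higher and 3 lower, with a median of 0.068, or -0.048 with the covariate, and 0 passing. The NCoR-like corepressor gene gei-8 differed by 0.29, the SUMO gene smo-1 by 0.22, and the Mediator genes let-19, mdt-6 and mdt-15 by -0.17, -0.22 and 0.066, of which mdt-15 encodes the coactivator of NHR-49. Of 9 genes for making, transporting or answering the DAF-12 ligand, 4 were higher and 5 lower, the median was -0.0013 (-0.091 with the covariate) and 0 passed. The oxygenase gene daf-36, at the start of dafachronic acid synthesis, had mutant values above all wild-type values, at 6.23, 6.05 and 6.18 on the wild-type arrays and 6.64, 6.37 and 6.42 on the tdp-1(ok803) arrays (limma adjusted p = 0.643). The differences of the P450 reductase gene emb-8, the sterol methyltransferase gene strm-1 and the dehydrogenase gene dhs-16 were -0.34, -0.35 and -0.16, and that of daf-9, the P450 gene of the last step, was -0.0013.

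Of 12 genes known as NHR-49 targets or partners in lipid metabolism, 8 were higher and 4 lower, with a median of 0.064 (0.098 with the covariate) and 0 passing. The desaturase genes fat-5, fat-6 and fat-7 differed by -0.11, -0.064 and 0.04. The glyoxylate cycle gene icl-1 read 11.19, 10.36 and 10.61 on the wild-type arrays and 10.22, 9.67 and 10.20 on the tdp-1(ok803) arrays, without overlap (limma adjusted p = 0.606). The carnitine palmitoyltransferase gene cpt-5 read 6.08, 6.08 and 7.08 on the wild-type arrays and 5.86, 5.69 and 5.81 on the tdp-1(ok803) arrays, also without overlap, and wild-type replicate 3 stood high. Its difference was -0.63 with all arrays (limma adjusted p = 0.702) and -0.30 without that array. The dehydrogenase gene hacd-1 and the flavin monooxygenase gene fmo-2 differed by 0.31 and 0.21. All 5 propionate shunt genes, controlled by nhr-10 and nhr-68, had lower means in the mutant, with a median of -0.34 and 0 passing. Per log2 unit of the 3' minus 5' difference the genes had a median slope of -0.57, and the median difference became 0.056 once that covariate was included. The shunt enzyme genes alh-8, ech-6, hach-1 and hphd-1 differed by -0.41, -0.34, -0.34 and -0.19.

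The moulting genes set beside nhr-23 and nhr-25 code for proteins of the cuticle, its shedding and its turnover. All 18 had a lower mean in the mutant, with a median of -0.80 beside 0.013 over all genes, and of -0.47 with the 3' minus 5' covariate. For 13 the groups did not overlap, where 4.7 percent of all genes were lower in that way. The list was chosen with earlier results of these data known, so these counts are a description. The lipocalin-related gene lpr-3 read 9.78, 9.33 and 9.81 on the wild-type arrays and 8.23, 8.10 and 7.89 on the tdp-1(ok803) arrays. It fell by 1.57 ± 0.17 on the log2 scale and was the 1 gene of the list to pass over all probe sets (limma adjusted p = 0.0289); the call was lost when any array other than wild-type replicate 2 was left out. The genes mlt-11, mlt-9 and noah-1 differed by -1.37, -1.16 and -1.06 without passing. The probe sets of lpr-3 and mlt-9, like those of icl-1 and mtl-2, are marked x_at, a design that can also catch related transcripts. The mean level of the 18 was 7.95, 7.32 and 8.15 on the wild-type arrays and 7.12, 7.05 and 6.84 on the mutant arrays. On the same arrays nhr-23 was highest on mutant replicate 3, where the moulting genes were lowest, and nhr-25 was lowest there. That array also had the highest 3' minus 5' difference, at 4.31. Slopes on this measure were 0.20 for nhr-23, -0.032 for nhr-25 and -0.27 at the median of the 18. The difference between a receptor and these genes was not tested, and neither was the part of the neuron, muscle and epidermal markers. Of the 5 epidermal markers, rol-6, dpy-7 and bli-1 are also among the 18, so these lists are not separate.

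Of 5 zinc response genes 1 was higher and 4 lower, with a median of -0.12, or -0.24 with the covariate, and the metallothionein gene mtl-2 differed by -0.84 without overlap (limma adjusted p = 0.409) while its relative mtl-1, the cadmium-responsive gene cdr-1 and the zinc transporter gene cdf-2 differed by -0.61, -0.12 and -0.11. Of 6 genes of the hypoxia pathway that induces nhr-57, 4 were measured, of which 1 was higher and 3 lower. Their median was -0.14, or 0.024 with the covariate, with the collagen prolyl hydroxylase gene phy-2 and the genes vhl-1, rhy-1 and cysl-2 at -0.66, -0.14, 0.15 and -0.13. None of these 9 genes passed.

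**Figure D5:**
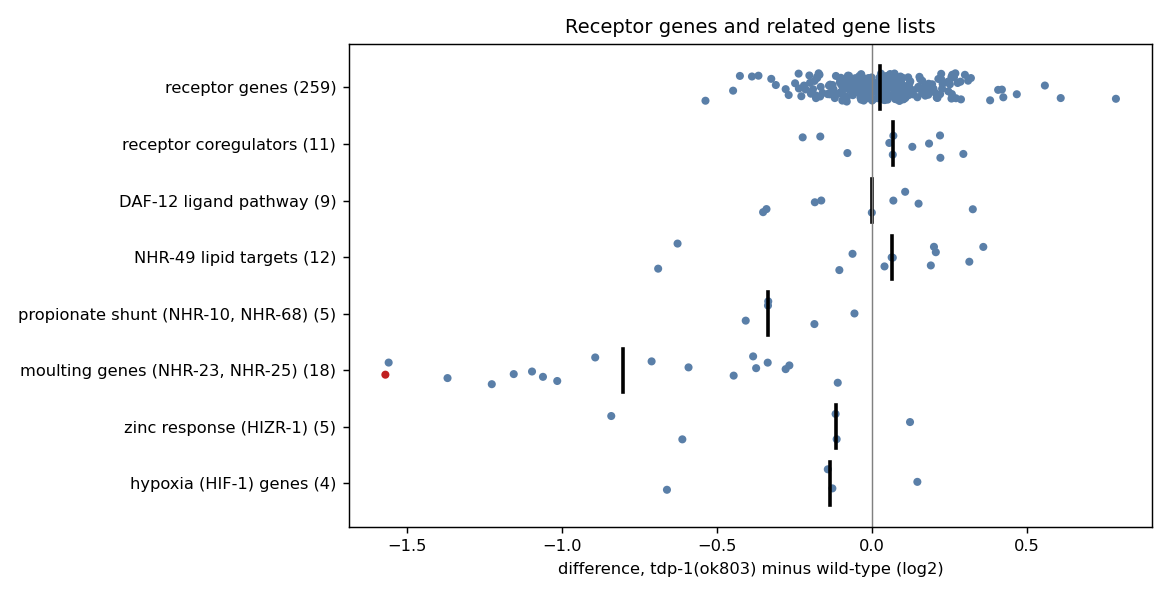
Differences, tdp-1(ok803) minus wild type on the log2 scale, of 259 receptor genes and of 7 lists of genes that work with or downstream of receptors, 1 point per gene with the number of genes in brackets, black bars at the medians and lpr-3, the 1 gene that passed at a limma adjusted p under 0.05, in red. Receptors lie between -0.54 and 0.79, while the moulting genes reach -1.57.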

How the data were processed

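Expression was measured in 3 wild-type and 3 tdp-1(ok803) samples of mixed-stage worms. Total RNA was extracted with TRIzol, cleaned on RNeasy columns and labelled with biotin, per the labels' protocols. The deposited table holds log2 values made by the authors, who name RMA and Partek, with no version, per the submitters' processing notes; how RMA was set is unstated there. Scanner files were not used, so signal over background was not assessed.

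Control probe sets (77) were left out. The other 22548 entered one linear model of genotype in limma 3.58.1 (lmFit, then eBayes) under R 4.3.3. Its two-sided p-values were adjusted by Benjamini-Hochberg across all of them, at a threshold of 0.05. Of these, 20766 had 1 gene symbol in the platform annotation, 887 had several and 895 had no entry. The WBcel235 gene table gave current symbols by gene ID for all but 65 of the first kind. The number of arrays limits the precision. The design text calls the samples biological replicates.

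Receptors, lists and tests were chosen with earlier results of these data known. Named receptors are those with a listed role, the 10 with the smallest p in each direction and the 10 brightest, besides those said to be chosen otherwise. For each related list the 4 genes with the smallest p were named, and others for their role. Alternatives were other moderation, normalization, filter and weights, the replicate number, the 3' minus 5' covariate, leaving out each array, the mean of a gene's probe sets, a threshold of 0.01 and the platform's own symbols.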

Additional observations from a re-analysis of the deposited data

How the results depend on the processing

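No receptor passed in limma under any alternative except array weights, including a threshold of 0.01, an unmoderated model, and leaving out each array. Under these alternatives, 4 (without wild-type replicate 1) to 17 receptors lay at an unadjusted p under 0.05. With the 3' minus 5' covariate it was 17 of 259 receptors, beside 1865 of all 17118 genes. For the other alternatives the share over all genes is not given here. The filter on dim probe sets left 137 receptors to test. With array weights 53 receptors were called, and 6291 probe sets called over the whole table; the weights were 7.91 for wild-type replicate 1 and 4.16 for mutant replicate 1 and at most 0.542 for the other 4 arrays, so that fit rests mostly on 1 array per genotype. Under those weights nhr-239 turned to 0.38. That count over the whole table, 13 with all arrays and equal weights, was 0 in the unmoderated model, 7 with equal array medians, 5 with the replicate block, 25 with the 3' minus 5' covariate and 4 to 97 with single arrays left out (97 without wild-type replicate 2). Genes of the related lists called, 1 with all arrays, were 2 with trend and robust moderation, 26 with array weights, 0 in the unmoderated model, with equal array medians, with the replicate block and with a gene's probe sets averaged, and 0 to 7 with single arrays left out (7 without wild-type replicate 2). The replicate block called 0 receptors. Deviations of equally numbered samples from their genotype means correlated at 0.05, -0.61 and -0.46 across probe sets. Such deviations sum to 0 within a genotype, so these values cannot show whether equally numbered samples were handled together. Whether they were was not tested. Of 54 named receptors, 36 kept their sign under every alternative that tested them. This count includes the receptors named for the smallest p in each direction. All of those kept their sign, which their choice from these same data favours. Every receptor whose sign turned had been named for its role or its brightness. The pooled count therefore overstates how steady the sign was among receptors named in those ways. The causes of these shifts were not tested. Dim probe sets limit what can be said of 189 receptors.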
